A study of Homo sapiens with 3 samples.

Results

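The regions described here were the 251 MEIS1 ChIP-seq peaks of HOXB13 knockout prostate cancer cells whose summit lay in the internal part of an ERVL-MaLR retroelement. They were taken from the repeat name that HOMER, the annotation program, gave to each peak: family ERVL-MaLR and a name ending in -int. They were 251 of the 2047 peaks of the HOXB13ko-LV-MEIS1 list and of 8015 peaks in both lists of the series. Beyond the calling of the peaks themselves, no measured value entered this rule. All 830 peaks with a repeat name in this list were annotated as intron or intergenic or had no annotation, so the rule left no room for members in promoters, exons or UTRs.

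The study used CWR22Rv1 (22Rv1), an epithelial prostate carcinoma line from a xenograft that relapsed after castration of the host mouse. LV-MEIS1 cells expressed MEIS1 from a lentiviral vector. HOXB13ko-LV-MEIS1 cells also lacked HOXB13 through CRISPR/Cas9: clonal knockout lines with integrated Cas9 were combined into 1 pool and then given the same vector. Chromatin was precipitated with 1 antibody against MEIS1 in both lines, 3 times for LV-MEIS1 and 2 times for HOXB13ko-LV-MEIS1, and the authors pooled the reads of each line before they called peaks against 1 input from untreated cells. The pools held 202428594 (LV-MEIS1) and 105763683 (HOXB13ko-LV-MEIS1) reads after filtering, and the input held 39102495. With 1 list per line there was no replicate error and no test between the lines was possible. Values are therefore given as counts, shares and 95% Wilson intervals, which cover counting error only.

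ERVL-MaLR elements are remnants of retrovirus-like retrotransposons of primates and other mammals. Each was built as an internal sequence between a pair of long terminal repeats (LTRs), and the LTRs carry the promoter. THE1 and MST are the younger groups of the family and MLT the older ones, and names ending in -int mark the internal sequence. MEIS1 is a TALE homeodomain protein that recognizes TGACA-containing sites, and it binds DNA together with HOX proteins such as HOXB13, which is the prominent HOX factor of prostate epithelium.

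Most of the members shared 1 short stretch of the internal sequence at their summits. The commonest 12-base word within 50 bp of the summit, on either strand, was ACTTCTGCCTGG, and around it a 60-base segment was defined as the commonest base at each position over all 3570 exact copies of the word on chromosomes 1 to 22, X and Y of hg38. The following lines show the copies under the THE1C-int and THE1-int members of highest fold enrichment, as examples of a copy that kept all 19 of the positions marked and of one that did not. Both are given 5′ to 3′ along the consensus strand. Capitals mark the 19 positions at which, on odd-numbered chromosomes, copies with a peak kept the consensus base more often than copies without one, by at least 5 percentage points.

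THE1C-int in MAP4K3, chr2:39359593-39359652, plus strand: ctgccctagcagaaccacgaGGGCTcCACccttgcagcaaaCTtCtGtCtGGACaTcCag

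THE1-int in ZNF670, chr1:247047442-247047501, plus strand: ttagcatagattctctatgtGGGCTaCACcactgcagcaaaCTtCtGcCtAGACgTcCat

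The MAP4K3 copy had 12 mismatches to the consensus, all outside the capitals. Gaps were not allowed in this count, so some of the 12 may come from inserted or lost bases. Copies under members had a median of 5 mismatches, so both copies shown lay further from the consensus than that median. The copies under the highest THE1D-int member, in PDSS2, and the highest THE1B-int member, in LRBA, differed from the consensus at 2 and 5 of 60 positions, of which 0 and 1 were among the 19. A copy on chromosome 21 matched the consensus at all 41 other positions and differed at 11 of the 19, and no peak was called there. A copy on chromosome X kept all 19 and also had no peak. In ZNF670 the copy shown had 10 mismatches, 1 of them at a capital position, and the element held 2 copies under 1 peak, and the summit lay between them.

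Internal ERVL-MaLR sequence held 12.3% of the HOXB13ko-LV-MEIS1 list (251 of 2047, Wilson interval 10.9 to 13.8%) and 0.0168% of the LV-MEIS1 list (1 of 5968, interval 0.00296 to 0.0949%). The LV-MEIS1 list analysed here is shorter than the study's count of peaks for that line, although its peaks are numbered from 1 to 5968 with 0 numbers missing, so this contrast and the overlaps hold for the list as deposited. THE1 names made up 195 of the 251 and MST names 56, while no MLT internal sequence was among them. By name, 72 were THE1C-int, 68 THE1D-int, 54 MSTA-int, 46 THE1B-int and 7 THE1A-int, with 2 each of THE1-int and MSTB-int. The LTRs of the same family showed another picture. The knockout list had 5 peaks in ERVL-MaLR LTRs (3 MLT and 2 MST) and the LV-MEIS1 list had 35 (31 MLT and 4 MST), and neither list had a peak in a THE1 LTR.

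**Figure D1:**
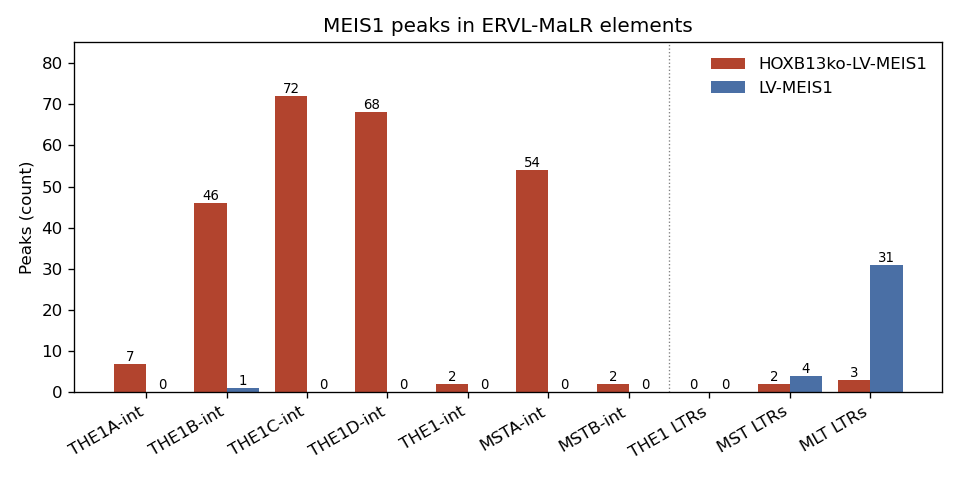
Number of peaks (vertical axis, count) by ERVL-MaLR element name in the HOXB13ko-LV-MEIS1 and LV-MEIS1 lists, with internal names left of the dotted line and the LTRs of each group right of it. The 251 internal peaks of the knockout list stand against 1 in the LV-MEIS1 list, whereas MLT LTRs held 3 and 31.

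No member overlapped an LV-MEIS1 peak (0 of 251, Wilson upper bound 1.51%), whereas 22.3% of all HOXB13ko-LV-MEIS1 peaks did so by at least 1 bp. The LV-MEIS1 list had only 1 peak with an internal ERVL-MaLR name, so few overlaps were possible. The absence of overlap thus largely repeats that count. The nearest LV-MEIS1 summit to any member was 1811 bp away and the median distance was 181074 bp, with 12 members inside 10 kb. The single internal peak of the LV-MEIS1 list was a THE1B-int at chr3:194520717-194521036, between genes and 33711 bp from the start of LINC00884, a long non-coding RNA gene. Its fold enrichment of 4.19 stood at the 7.46th percentile of its own list, and its sequence within 100 bp of the summit held no trace of the segment (local alignment score 6 of a possible 60).

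Most members were moderate peaks. Fold enrichment, the height of the read pileup over the local background that MACS2 took from the input, ran from 3.25 to 12.02 with a median of 6.52 and quartiles of 5.85 and 7.42. The other 1796 peaks of the list had a median of 5.68 and reached 18.7. The strongest member ranked 63rd of 2047, 6 members were among the first 100 and 184 among the first 1000. Members made up 12.3% of the whole list, and their median percentile in it was 64.9. The pileup at the summit ran from 16.6 to 56.2 with a median of 26.6, against 26.99 in the rest. One fragment was worth 0.370 units, so the median member rested on 72 fragments and the smallest on 45. The median width of members was 248 bp against 271 bp in the rest, and the widest member had 551 bp against 3221 bp. Peaks of the list in other endogenous retroviruses had a median width of 247 bp, so this width was not particular to the members.

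The element names differed little in height. The median fold enrichment was 6.39 for THE1B-int, 6.52 for THE1C-int, 6.51 for THE1D-int and 6.71 for MSTA-int, and their ranges overlapped widely. The 7 THE1A-int peaks had a median of 5.95 and none passed 6.80. The 249 peaks of the list in other endogenous retroviruses (ERV1, ERVK and ERVL families) had a median of 6.99 and a highest value of 15.0, so the members' median lay between these and the rest of the list. The input background was at its genome-wide floor of 2.90 for 116 members (46.2%), compared with 35.2% of the other peaks and 39.0% of those in other endogenous retroviruses.

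**Figure D2:**
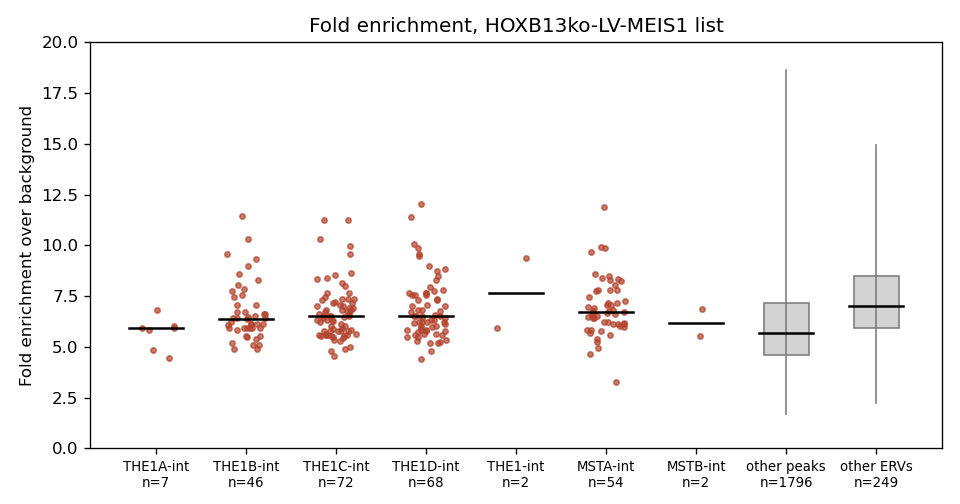
Fold enrichment over background (vertical axis, ratio) of every member by element name, each point 1 peak and each black line the median. Grey boxes give the quartiles and grey lines the full range of the 1796 other peaks and of the 249 peaks in other endogenous retroviruses of the same list, with medians of 5.68 and 6.99.

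The highest member lay in intron 1 of PDSS2, which encodes a subunit of the enzyme that makes the side chain of coenzyme Q. This THE1D-int peak (chr6:107447692-107447996) had a fold enrichment of 12.02. An MSTA-int peak between genes (chr1:151737531-151737857), 16152 bp from the start of RIIAD1, had the highest pileup of all members at 56.2 and a fold enrichment of 11.9. A THE1B-int peak in intron 2 of LRBA, a vesicle trafficking protein, reached 11.5 and a THE1D-int peak in intron 1 of the antisense RNA gene MYLK-AS1 reached 11.4. Both THE1C-int peaks that followed, in intron 2 of the kinase gene MAP4K3 and in an intron 5188 bp upstream of the DBNDD2 start, had 11.3. The remaining 4 of the 10 highest lay between genes. They were paired with FAM111A, which encodes a protease that restricts viral replication, at 10.3, with LOC155060, a pseudogene, at 10.3, with GUCY1A2, a subunit of soluble guanylate cyclase, at 10.0, and with LCE5A, a cornified envelope gene, at 9.96. Of these 10, 4 were THE1C-int, 3 THE1D-int, 2 THE1B-int and 1 MSTA-int.

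Members lay far from gene starts. The median distance from the summit to the nearest annotated start was 45251 bp, against 6609 bp for the other peaks of the list. No member was within 1 kb, 31 (12.4%) were within 10 kb against 53.8% of the rest, and 76 (30.3%) were beyond 100 kb against 9.19%. Introns held 105 members (41.8%) and intergenic sequence 145, and 1 on an alternate contig had no annotation. Of those in introns, 34 were in the first intron of the transcript. The other ERV peaks, for which the annotation followed the same order, had a median distance of 30026 bp and 34.9% in introns, so much of the contrast with the whole list was shared by peaks in other retroviral sequence.

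The members were spread over 240 named genes, and 7 genes were paired with more than 1 of them. LOC730100, a non-coding RNA gene, had 3 THE1-named peaks in its introns 2, 3 and 5, with fold enrichments of 5.83, 6.14 and 6.42. DCAF4L2 also had 3, all between genes and at least 167833 bp from its start, at 5.57, 6.04 and 6.52. The others had 2 each: UBE3D, a ubiquitin ligase gene, at 5.10 and 7.09 in introns 5 and 9, CWC22, a splicing factor gene, at 5.87 and 8.51, FAM19A2 at 6.51 and 6.95, SDR9C7 at 5.40 and 5.55, and the non-coding CASC6 at 7.46 and 7.86. Neighbouring summits were never closer than 45074 bp.

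The 5 members nearest to a gene start were 1552 to 3513 bp away. They were paired with KRTAP10-8, a keratin-associated protein gene (THE1A-int, fold enrichment 5.95), SDR42E1 (THE1B-int, 6.71), the butyrophilin pseudogene BTN2A3P (THE1C-int, 5.57), LGR5, the R-spondin receptor of stem cells (MSTA-int, 9.65), and the microRNA gene MIR4436A (THE1D-int, 6.23). No HOX or TALE gene was paired with a member, and such genes were rare in both whole lists, with 3 of 2047 knockout peaks and 23 of 5968 LV-MEIS1 peaks. Among proteoglycan genes, GPC5, a cell surface glypican, had 1 member in its intron 1 (THE1D-int, fold enrichment 6.40, 28473 bp from the start), and the whole lists had 2 and 5 peaks at genes of this group. Among growth factor genes, IGF1 had 1, a THE1C-int 124168 bp from the start with a fold enrichment of 5.62, and it was the only knockout peak at genes of this group, against 12 LV-MEIS1 peaks. Genes of retroelement silencing and zinc finger genes had 5 members: ATF7IP, a partner of the histone methyltransferase SETDB1, at 7.31, and ZNF670, ZNF730, ZNF627 and ZNF112 at 9.37, 6.80, 6.33 and 6.23. The whole knockout list had 77 peaks at genes of this group and the LV-MEIS1 list 136.

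The 12-base word lay within 50 bp of the summit in 157 members (62.5%, interval 56.4 to 68.3%) and in 90.8% when 1 mismatch was allowed. It was at none of the members' flanks 450 to 550 bp to either side, in none of the 1796 other peaks and in none of the 5968 LV-MEIS1 peaks at their summits. The word was taken from the members, and other knockout peaks on such sequence would mostly be members too, so its absence there was largely set by the choice. The word was common in THE1C-int (54 of 72) and THE1D-int (47 of 68) and less so in THE1B-int (26 of 46) and MSTA-int (26 of 54). It lay on the plus strand of the genome in 80 members and on the minus strand in 77. Along its own strand, the word began a median of 10 bp after the summit. Of the 157 members, 101 had their summit within 10 bp of that median position.

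The MEIS core TGACA was scarce at these summits. It was present within 50 bp in 6 of 251 members (2.39%, interval 1.10 to 5.12%), below the 12.4% of windows of the same width in the members' own flanks. In the other peaks of the list it was at 18.8% of summits and 14.7% of flanks, and in the LV-MEIS1 list at 56.1% and 18.9%. The longer TGACAG was at 1.19% of member summits and 4.38% of flanks, and 30.4% of LV-MEIS1 summits. ATAAA, the core of HOXB13-type sites, was at 2.79% of member summits and 43.2% of their flanks, and TGATTTA, a combined MEIS and HOX word, was at 0 of 251 and at 7.97% of flanks. A member's summit window was mostly the same segment of the element, so these shares describe 1 sequence many times over and the members are not independent samples of it.

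The segment was then located wherever it occurred. An ungapped copy was counted where at least 1 of its 5 pieces of 12 bases was intact and no more than 20 of 60 bases differed, which gave 5449 copies on chromosomes 1 to 22, X and Y. Copies lay under 217 of the 251 members (86.5%), and of these summits 210 (96.8%) fell inside the 60 bases, at a median position of 31 (quartiles 25 and 40). The segment had been placed so that position 31 fell at the median summit of the 157 members with the word. The median position was thus set by this placement, and the share inside depends on it. When gaps were allowed, 32 of the other 34 members also matched near the summit with a score of at least 20, and 248 of 251 did so in all. The best score in the other 1796 peaks of the list was 16 and in the LV-MEIS1 list 19. The 3 members under that limit were a THE1D-int near TMPRSS12, an MSTA-int near OPA1-AS1 and a THE1B-int near CCDC162P. No copy of the segment lay under any other HOXB13ko-LV-MEIS1 peak or under an LV-MEIS1 peak. A knockout peak on such a copy would mostly carry an internal ERVL-MaLR name and so be a member. The LV-MEIS1 list had only 1 peak with such a name. These absences, and the low scores outside the members, thus largely repeat the rule and that count.

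Of the 5449 copies, 219 (4.02%, interval 3.53 to 4.57%) were under a peak. The share was higher for copies closer to the consensus. It was 23.3% (24 of 103) with 2 mismatches or fewer, 10.3% with 3 or 4, 4.84% with 5 or 6 and 1.45% with 7 or 8, and 1.22% (9 of 740) beyond 10. Among copies with a peak, the median fold enrichment was 6.78 with 2 mismatches or fewer, 6.42 with 3 or 4, 6.52 with 5 or 6 and 6.61 with 7 or more, over 217 members that share the segment (Spearman's rho across members -0.07). With mismatches at the 19 capital positions alone the correlation was weak and negative (rho -0.22 over the same 217).

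The bases that set copies with a peak apart were not spread evenly. Positions were counted from 1 at the segment's 5′ end. At position 22 the consensus base was present in 99.1% of copies with a peak and 80.2% of copies without one. The gap was wider at positions 25 (87.2% against 49.9%), 27 (92.2% against 52.8%) and 28 (76.3% against 48.7%), and at position 53 (91.8% against 67.8%). The stretches from positions 8 to 20 and 30 to 39 showed gaps of less than 4 percentage points in either direction. Every position with at least 5 points more agreement under peaks lay in 1 of 2 blocks, at 21 to 28 and at 42 to 58, on either side of the median summit. At positions 1, 5, 7, 40 and 60 the copies without a peak agreed more often by at least 5 points, most of all at 40 (53.4% against 68.8%).

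**Figure D3:**
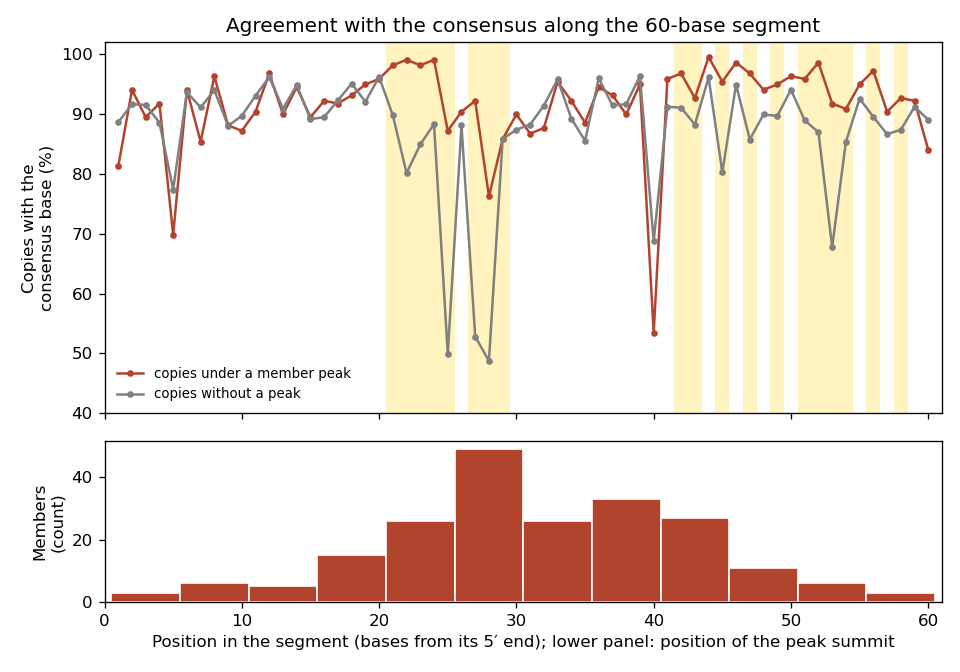
Upper panel: percent of segment copies that carry the consensus base (vertical axis) at each of the 60 positions (horizontal axis, bases from the 5′ end), for the 219 copies under a member peak and the 5230 copies without one, with the 19 chosen positions shaded. Lower panel: number of members whose summit fell at each position, in steps of 5 bases. The segment was placed so that the median summit of members with the word fell at position 31.

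Many single substitutions in these blocks went with few peaks. Among substitutions found in at least 100 copies, the interval lay below the share of the consensus base for 11 of 14 at positions 21 to 28 and for 15 of 31 at positions 42 to 58, against 1 of 57 elsewhere. The blocks were drawn from the same copies and peaks, so this contrast follows in part from their choice and is no separate support. Of 716 copies with G22A, 2 (0.279%) were under a peak, against 217 of 4409 (4.92%) with the consensus base. None of 538 copies with G23A and 1 of 430 with C24T had a peak, and C27T was in 2356 copies of which 16 had one (0.679%, interval 0.418 to 1.10%). T25C left 1.14% (28 of 2457) and A28G 1.63% (41 of 2516), whereas A28T, at the same position, left 5.56% (9 of 162, interval 2.95 to 10.2%), close to the 6.15% of the consensus base. In the other block, C45T left 0.575% (5 of 870), G52A 0.482% (2 of 415) and A53G 1.17% (17 of 1453), whereas C42A (4.10%) and C54T (3.73%) were close to the consensus base at their positions (4.26 and 4.27%) and C57G (5 of 119 copies) was not below it (4.19%). Outside the blocks, A40G had a higher share (6.47%, 82 of 1267) than the consensus base (3.15%), and C5T likewise (6.30% against 3.64%). Copies of 1 subfamily share several of these bases, so the positions were not independent of each other. Taking positions 25, 27 and 28 together on the autosomes, 12.4% of 1149 copies with all 3 consensus bases had a peak, 3.92% with 2, 1.46% with 1 and 0 of 946 with none, which allows up to 0.404%.

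The 19 positions had been chosen on odd-numbered chromosomes, as those with a gap of at least 5 percentage points, so that the even-numbered ones could be described apart. The word, the consensus and the placement of the segment came from all chromosomes, however. Copies of 1 subfamily share bases on odd and even chromosomes alike, and all peaks came from 1 pooled list. The even-numbered chromosomes were thus no independent set. On the even-numbered chromosomes 15 of the 19 again had a gap of at least 5 points, and 4 of the other 41 did. Position 29 changed sign (5.93 points on odd and -6.99 on even chromosomes). On even-numbered chromosomes 32.2% (29 of 90, interval 23.5 to 42.4%) of copies that kept all 19 bases were under a peak. The share was 15.0% (35 of 233) with 1 mismatch there, 6.12% with 2, 1.43% with 3 and 0.0847% (1 of 1181) with 4 or more. Without regard to the 19, mismatches at the other 41 positions had no such order: 1.93% with 0 or 1, 4.44% with 2 or 3, 6.11% with 4 or 5 and 2.33% with 6 or more. Among autosomal copies that kept all 19 bases, the share was 62.5% (5 of 8) with 0 or 1 mismatches elsewhere. It was 51.3% (20 of 39) with 2 or 3 and 36.1% (39 of 108) with 4 or more, with overlapping intervals. On even-numbered chromosomes alone these shares were 33.3% (1 of 3), 42.9% (9 of 21) and 28.8% (19 of 66).

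**Figure D4:**
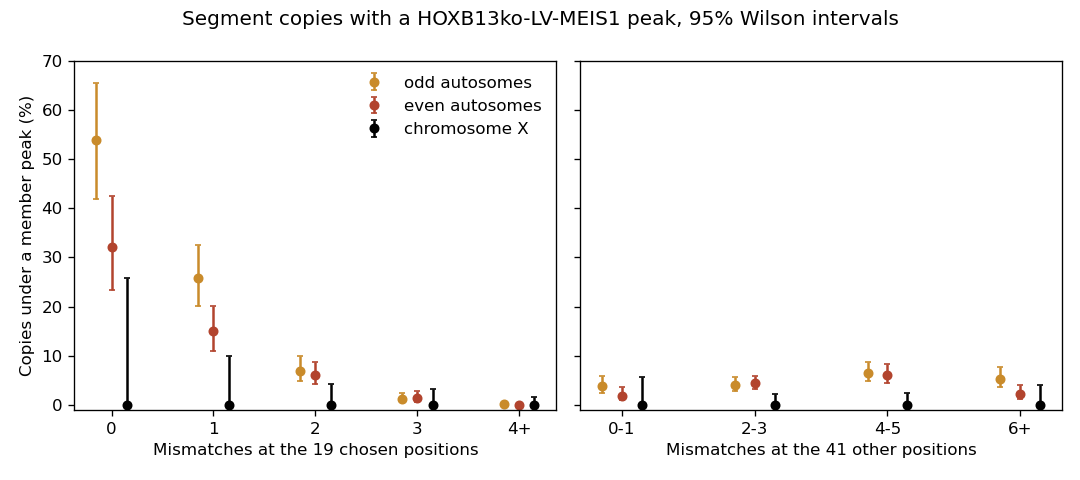
Percent of segment copies under a member peak (vertical axis, with 95% Wilson intervals) by the number of mismatches at the 19 chosen positions (left) and at the 41 other positions (right), for odd and even autosomes and chromosome X. The share on even autosomes was 32.2% with no mismatch at the chosen positions and 0.0847% with 4 or more, while no copy on X had a peak.

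Most well-kept copies, those with at most 1 mismatch at the 19 positions, had no peak (474 of 621). Peaks were unevenly shared among chromosomes. Chromosome 12 had 25 peaks in 250 copies (10.0%, interval 6.87 to 14.3%), chromosome 7 had 20 in 264 (7.58%), chromosome 1 had 28 in 384 (7.29%) and chromosome 3 had 26 in 415 (6.27%). Chromosomes 19 (3 of 29, 10.3%, interval 3.58 to 26.4%) and 17 (5 of 65, 7.69%, interval 3.33 to 16.8%) had shares as high on few copies, and 9 of 20 well-kept copies on chromosome 9 had a peak. Chromosomes 1, 3, 7 and 12, grouped after their values were seen, held 116 of the 251 members and had a share of 7.54% (interval 6.23 to 9.10%) against 3.31% (2.77 to 3.94%) on the other autosomes. With at most 1 mismatch at the 19 positions the counts were 64 of 160 copies and 83 of 414 (20.05%). The 19 positions were chosen on odd-numbered chromosomes, which include 1, 3 and 7, so these counts are not independent of that choice. Copies that kept all 19 bases had a peak in 53.8% of cases on odd-numbered chromosomes and in 32.2% on even-numbered ones. The input background at the members was also higher on these 4 chromosomes, with a median of 3.61 against 2.90, and they held 38.1% of the other peaks of the list and 35.4% of the LV-MEIS1 peaks with 24.0% of the genome's length. The part of the background in the uneven shares was not tested.

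On chromosome X, 0 of 475 copies had a peak (interval 0 to 0.802%), and 0 of 46 with at most 1 mismatch at the 19 positions (up to 7.71%). Of all HOXB13ko-LV-MEIS1 peaks 5 were on X (0.278% of the peaks outside the members), as were 78 LV-MEIS1 peaks (1.31%). X made up 5.05% of the length of chromosomes 1 to 22, X and Y, so peaks of other kinds were also few there. In 31 of these 46 copies (67.4%) every 50-base sequence around the copy, the length of a read, occurred once in the genome, against 72.4% of all well-kept copies without a peak. Chromosomes 22 and Y had no peak in 27 and 33 copies, with intervals up to 12.5 and 10.4%.

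**Figure D5:**
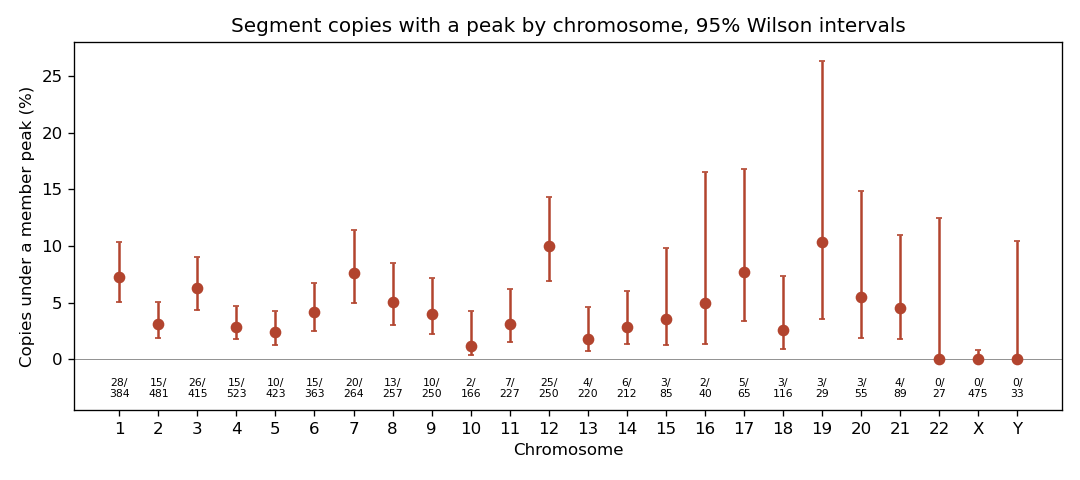
Percent of segment copies under a member peak (vertical axis, with 95% Wilson intervals) on each chromosome (horizontal axis), with the copies under a peak and all copies written below each point. Chromosome 12 had 25 of 250 and chromosome X 0 of 475.

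Copies inside genes were under a peak more often. Of the copies under a member, 42.9% (interval 36.5 to 49.5%) were inside a protein-coding gene of GENCODE, against 24.6% (23.5 to 25.8%) of copies without a peak, and 109 of the 474 well-kept copies without one. Their median distance to a protein-coding start was 70391 bp against 194035 bp. On the autosomes, well-kept copies (at most 1 mismatch) had a peak in 38.7% of 163 cases inside genes and in 20.4% of 411 outside. On chromosomes 1, 3, 7 and 12 the shares were 54.7% of 53 and 32.7% of 107, with intervals that just overlapped (41.5 to 67.3% and 24.6 to 42.1%). On the other autosomes they were 30.9% of 110 and 16.1% of 304, with intervals that just parted (23.04 to 40.1% and 12.4 to 20.67%). By strand the intervals overlapped. Among copies with a peak inside genes, 51 ran along the gene and 43 against it (54.3% along, interval 44.2 to 63.96%), and 58.8% (56.1 to 61.4%) of copies without a peak and 65.1% (55.8 to 73.4%) of the well-kept ones without a peak ran along theirs.

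Regional features moved with these shares. Well-kept autosomal copies with an LV-MEIS1 peak within 100 kb had a member peak in 36.4% of 129 cases (interval 28.6 to 45.0%) and those without one in 22.5% of 445 (18.8 to 26.6%). The GC content of the surrounding 10 kb was 39.9% (median) at copies with a peak and 39.1% at copies without. In well-kept autosomal copies the share with a peak was 14.6% of 82 below 36% GC and 37.5% of 56 at 44% GC and above. Between these it was 26.3% of 262 from 36 to 40% GC and 25.9% of 174 from 40 to 44%. Intervals of neighbouring GC ranges overlapped. How far gene bodies, GC content and nearby peaks overlap in these shares was not tested.

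Within 50 bp of the summit, every 50-base sequence, the length of the reads, was found at most once in the genome in 160 of 251 members (63.7%, interval 57.6 to 69.4%), and at least 1 such sequence was found in 250. Over the whole peak every 50-base sequence was unique in 80 members (31.9%). The other peaks of the list had 69.0% with every sequence unique. The share was 64.8% (interval 58.3 to 70.9%) for copies with a peak and 69.3% (68.1 to 70.6%) for copies without. The share of copies with a peak was 23.2% of 406 well-kept autosomal copies with every sequence unique and 31.5% of 168 without, intervals that overlap.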

How the data were processed

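Peak lists of MEIS1 ChIP-seq in LV-MEIS1 and HOXB13ko-LV-MEIS1 CWR22Rv1 cells were used as deposited. The authors trimmed 50-base single-end reads with Trimmomatic 0.38, aligned them to hg38 with Bowtie2, removed duplicates per the file headers, called peaks on the pooled reads of each line with MACS2 2.1.2 (q limit 0.01, extension 200 bp) against 1 input and annotated them with HOMER 4.9.1. Any filter on reads that align to several places is not given in the sources used here. Per the file headers, the deposited values were the pileup signal at the summit, −log10 of the p-value and q-value, and fold enrichment, a ratio of (pileup + 1) to (background + 1). The deposited score in the annotated lists was the −log10 q-value. The background was computed back from pileup and fold enrichment. MACS2 scaled the deeper pool down to the input, so heights were compared within a list only.

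Members and lists were chosen with earlier results of these data known. Named genes were those paired by HOMER with the 10 highest members, with at least 2 members, with the 5 members nearest to a start, or in 1 of the gene lists. One gene list and the sequences of most segment copies are not reported here. Sequences were read from hg38 with pysam 0.24.0, words were searched on both strands, and genes came from GENCODE 44. The 12-base word, the 60-base segment, the copy rule and the 19 positions were set from these data. Copies of 50-base sequences were exact, on both strands of chromosomes 1 to 22, X and Y. Local alignment scored 1 per match, -1 per mismatch, -2 to open and -1 to extend a gap. The word and copy searches were tested on simulated data. No test was run, because each line had 1 list. The alternatives tried were stricter peak limits, other windows and words, other annotations and other copy rules.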

Additional observations from a re-analysis of the deposited data

How the results depend on the processing

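Of 91 alternatives over 18 results, 66 kept the value within its counting interval or the count within 1.5 times, and 6 of the 91 were added after the data were seen. A −log10 q of at least 10 left 163 members, with a median fold enrichment of 7.05, pileup of 29.95 and width of 266 bp. Their share of the knockout list was 13.9% at a −log10 q of at least 5, 17.0% at 10 and 16.8% at a fold enrichment of at least 5. The LV-MEIS1 list had 0 internal peaks (0%) under each of these 3 limits, and 36 peaks when all ERVL-MaLR names were counted. Members overlapping an LV-MEIS1 peak stayed at 0 under the 3 other overlap rules. The median distance to a start was 75345 bp for protein-coding genes of GENCODE and 25355 bp for any of its genes, whose bodies held 61.2% of members. The 12-base word was at 42.2% of summits within 25 bp, a 16-base word at 47.4% and the word with 1 mismatch at 90.8%. TGACA was at 7.97% within 100 bp and 17.5% in the whole peak, and TGATTTA at 0. Over all 50-base sequences of the peak, 31.9% of members had none repeated. With gaps allowed, 98.8% of members held the segment. The cause of these changes was not tested. No paired analysis was possible because each line had 1 pooled list.

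The LV-MEIS1 pool was the deeper and was scaled down more (factor 0.193 against 0.370), and a peak below the q limit is not listed. The part of depth and scaling in the contrast between the lists was not tested. Single immunoprecipitations were not analysed here, so whether the members recur in both of the knockout line was not tested. Clone pool, Cas9 and library cannot be told apart from the loss of HOXB13.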
